A study of Mus musculus with 18 samples.

Results

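The axon guidance ligands and receptors were taken as the protein-coding mouse genes that GENCODE vM21 names as class 3 to 7 semaphorins, plexins, neuropilins, Eph receptors, ephrins, Slits, Robos, netrins 1 to 5, Unc5 receptors or Dcc. The rule gave 69 genes, and 68 of them were among the 47643 genes counted in each library, Ntn3 being the one without a matching identifier. Of the 68 genes, 54 had over 1 CPM (counts scaled to library size) in at least 3 of the 18 libraries and were tested for change after injury. The members passed this filter on levels in any group, so counts of changed members refer to the 54 and not to the families as a whole.

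RNA was measured in embryonic dorsal root ganglion (eDRG) spot cultures, made from e13.5 ganglia of CD-1 mice. All groups were grown with FDU, an inhibitor of dividing cells. The control group was uninjured and collected at DIV7 (day 7 in vitro), and in the 5 injured groups the axons were severed with a blade before collection, 1, 3, 8, 16 and 24 h earlier (HPI, hours post injury). The labels give day 7 for every group, while the paper places the cut itself at DIV7. The series holds no uninjured group for each time point, so injury and hours in culture cannot be told apart. Each of the 6 groups had 3 replicate libraries, with 9478891 to 23082327 counts on genes. The cultures were bulk samples of neurons and some other cells, so fewer cells of a type and less RNA per cell cannot be told apart. The labels do not say that replicates were separate cultures, and p-values measure only the spread between these libraries.

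Growing axons are steered by ligands that the surroundings secrete or display and by receptors on the growth cone. Semaphorins signal through plexins, with neuropilins as co-receptors for most secreted class 3 members. Ephrins signal through Eph receptor tyrosine kinases, Slits through Robos, and netrins through Dcc and Unc5 receptors. Sensory neurons are known to make both ligands and receptors of these families, and the receptors can serve attraction, repulsion or both.

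The sequence upstream of the start of transcription is shown for 3 members that were higher and 3 that were lower than control at 16 HPI. Each window is the 250 bases before the RefSeq start on GRCm38.p6, written 5′ to 3′ on the strand of the gene, and capitals mark matches to the GC box GGGCGG on either strand.
Slit2 chr5:47982905-47983154 +: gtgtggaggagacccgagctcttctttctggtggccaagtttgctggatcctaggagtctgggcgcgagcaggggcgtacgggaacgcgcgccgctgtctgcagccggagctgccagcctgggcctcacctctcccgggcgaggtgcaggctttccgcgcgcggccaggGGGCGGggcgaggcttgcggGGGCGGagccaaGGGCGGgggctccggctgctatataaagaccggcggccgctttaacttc
Unc5b chr10:60831582-60831831 -: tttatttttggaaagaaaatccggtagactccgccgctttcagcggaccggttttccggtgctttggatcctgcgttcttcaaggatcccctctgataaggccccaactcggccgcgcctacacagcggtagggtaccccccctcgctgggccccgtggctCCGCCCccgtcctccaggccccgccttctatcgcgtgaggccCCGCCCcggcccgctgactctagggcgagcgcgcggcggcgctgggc
Efnb2 chr8:8661243-8661492 -: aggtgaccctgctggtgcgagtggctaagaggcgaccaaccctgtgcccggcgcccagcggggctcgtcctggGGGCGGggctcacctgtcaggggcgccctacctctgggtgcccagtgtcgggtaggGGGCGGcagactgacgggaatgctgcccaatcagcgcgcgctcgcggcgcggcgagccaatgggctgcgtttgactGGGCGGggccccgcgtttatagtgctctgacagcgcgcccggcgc
Plxna2 chr1:194619579-194619828 +: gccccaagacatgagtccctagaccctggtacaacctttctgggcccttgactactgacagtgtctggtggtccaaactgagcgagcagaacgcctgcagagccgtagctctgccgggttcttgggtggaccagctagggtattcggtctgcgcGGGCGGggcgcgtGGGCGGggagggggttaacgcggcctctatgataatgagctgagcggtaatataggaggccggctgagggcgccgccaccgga
Sema5a chr15:32244563-32244812 +: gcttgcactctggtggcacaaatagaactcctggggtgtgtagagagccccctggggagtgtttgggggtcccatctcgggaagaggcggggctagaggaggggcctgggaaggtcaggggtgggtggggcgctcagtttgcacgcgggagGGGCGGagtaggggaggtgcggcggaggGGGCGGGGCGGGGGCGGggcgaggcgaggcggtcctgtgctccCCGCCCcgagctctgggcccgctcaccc
Epha6 chr16:60605532-60605781 -: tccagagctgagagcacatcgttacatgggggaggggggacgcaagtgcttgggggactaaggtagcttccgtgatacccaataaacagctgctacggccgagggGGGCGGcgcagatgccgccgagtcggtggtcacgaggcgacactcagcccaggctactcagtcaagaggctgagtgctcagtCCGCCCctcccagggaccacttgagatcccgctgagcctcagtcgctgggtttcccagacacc
The 6 windows shown all hold a GC box, while the windows of Efnb1 (higher) and of Sema3a, Robo1 and Unc5c (lower) hold none. A window was found for 58 of the 68 members, but none for Unc5d or Sema6a. Some members, such as Sema4c, had several. The 8 members higher at 16 HPI gave 7 windows from 6 genes, and the 22 lower gave 27 windows from 21 genes. The GC box stood in 6 of 7 windows of members higher at 16 HPI and in 18 of 27 windows of members lower at 16 HPI, against 46 of 62 windows (74.2%) of all tested members and 32.7% of all 32851 windows of the same length. The AP-1 motif TGANTCA, searched on both strands, stood in 1 window of the higher members (Sema4c) and 1 of the lower members (Sema4d), against 6.75% of all windows. The CRE motif TGACGTCA stood in 0 windows of tested members, against 1.55% of all windows. The letters of the 3 motifs do not overlap one another, and a match is only a description of these letters.

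In uninjured cultures, 43 of the 68 members had a mean level over 1 RPKM (CPM per kb of exon). Nrp1, the semaphorin 3A co-receptor, had the highest level at 33.3 ± 6.95 RPKM (SD, n = 3). It was followed by the Eph receptor Epha6 at 30.1 ± 5.73 RPKM and by Plxna4, a plexin that works with Nrp1, at 29.3 ± 1.21 RPKM. Plxnd1, the plexin for semaphorin 3E, had 24.4 ± 10.4 RPKM. These 4 receptors did not differ from their neighbours in this order beyond their spread.

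The highest ligands were Efna3, a membrane-anchored ephrin-A, at 18.8 ± 3.36 RPKM, the transmembrane Sema5a at 18.6 ± 1.48 RPKM and Sema4f at 18.3 ± 1.00 RPKM. Slit1 had 17.05 ± 7.39 RPKM. Its 3 control libraries had 53.1, 111 and 139 CPM, so the level of this secreted Robo ligand differed over 2-fold between replicates of the same group. In the netrin family the highest member was Unc5c at 3.11 ± 0.522 RPKM. The netrin receptors were thus at lower levels than the leading semaphorins and plexins.

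Of the 14 members not tested, none was above 1.104 CPM in any library, the level reached by Epha2 and Efna4. The highest raw count was 23, for Slit3. The netrin receptor Dcc had at most 12 counts in a library, and its ligand Ntn1 had at most 13. Ntn5 had 0 counts in all 18 libraries, which allows up to 0.317 CPM in the shallowest library. These limits cover counting error only.

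**Figure D1:**
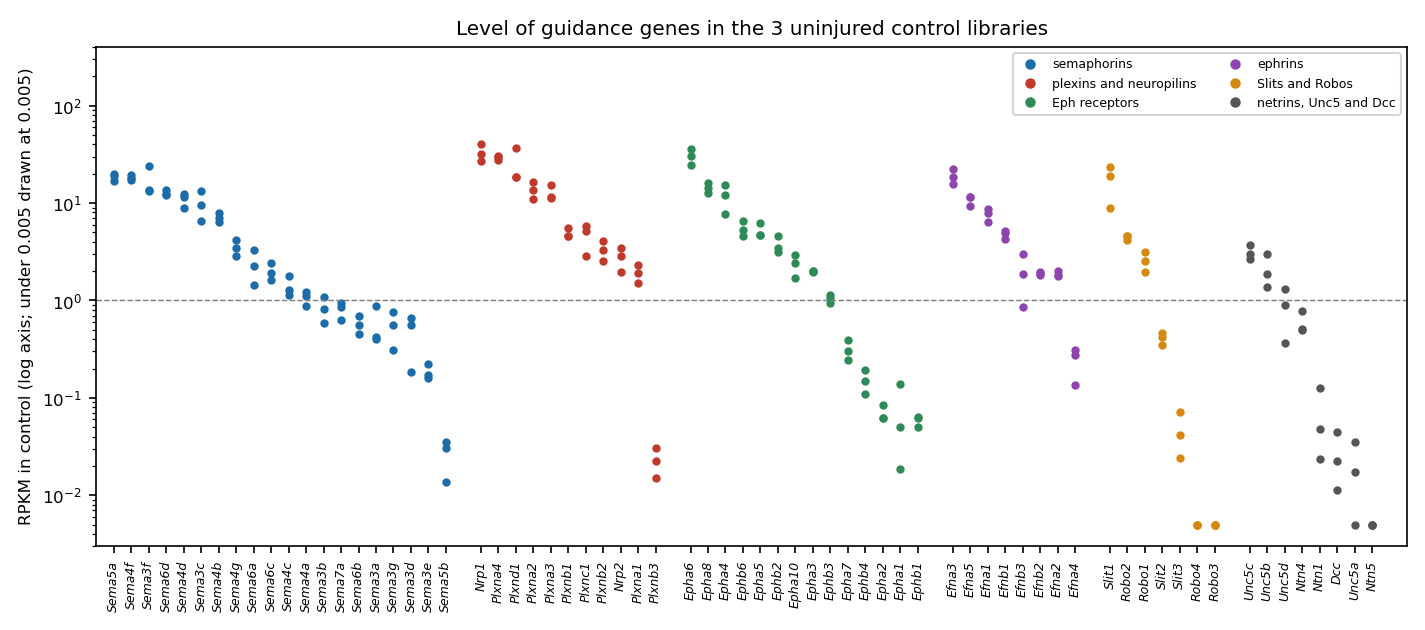
RPKM (log axis) of all 68 counted members in the 3 control libraries, 1 point per library, ordered within family. The dashed line is 1 RPKM, and 43 members had a mean above it, led by Nrp1, Epha6 and Plxna4.

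Over the 5 time points together, 41 of the 54 tested members changed at an adjusted p under 0.05, against 30% of all genes. The test was edgeR's quasi-likelihood test (Benjamini-Hochberg adjustment over 13771 genes, two-sided, batch in the model). At single time points, 38 members passed at 1 or more of them, against 30.5% of all genes. Changes were mostly below 2-fold. Unc5d and Sema6a were the 2 members past 2-fold at any time point, against 2.18% of all genes. All 5 comparisons share the control libraries. Without 16 HPI replicate 2, 4 members passed 2-fold at some time point, and the share of all genes in that fit is not given here.

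At 1 and 3 HPI few members passed the adjusted test. At 1 HPI only Plxna3, a neuropilin-associated plexin, passed, with a log2 fold change (log2FC) of -0.33 ± 0.07 (SE) and an adjusted p of 0.0497 by edgeR, against 0.276% of all genes (0.0944% higher and 0.182% lower). This call was lost without any one control library, 1 HPI replicate 1 or 2, or any one library of 8 or 24 HPI. At 1 HPI 20 of the 54 members had an unadjusted p under 0.05, against 12.8% of all genes, and the median log2FC was -0.14, with 15 of the 54 values above 0. DESeq2 called 4 at 1 HPI, and the fit of the 2 compared groups alone called 12, against 0.98% and 3.25% of all genes. At 3 HPI 0 members passed by edgeR, against 0.189% of all genes (0.0436% higher and 0.145% lower). DESeq2 called 5 at 3 HPI, against 1.11% of all genes. By edgeR 17 of the 54 had an unadjusted p under 0.05 at 3 HPI, against 14.5% of all genes. Without Control replicate 1 edgeR called 2 members, and without 3 HPI replicate 1 it called 4, against 0.465% and 1.08% of all genes.

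In the adjusted calls the members fell more often than they rose at 8, 16 and 24 HPI. Most values were already below 0 earlier. At 1 and 3 HPI, 15 and 14 of the 54 were above 0, with a median log2FC of -0.14 and -0.11. At 8 HPI 16 members fell and 0 rose by edgeR, against 3.90% and 3.78% of all genes. By DESeq2 15 fell and 0 rose, against 6.25% of all genes changed in either direction. At 16 HPI 22 fell and 8 rose, against 11.5% and 10.7%. At 24 HPI 22 fell and 6 rose, against 9.03% and 5.99%. The median log2FC over the 54 members at 8, 16 and 24 HPI was -0.20, -0.16 and -0.20. Over all genes the medians were -0.00092, -0.0022 and 0.0020. In the 3 batches taken alone, the median of the members lay between -0.21 and -0.11 at 8 HPI, between -0.23 and -0.16 at 16 HPI and between -0.23 and -0.15 at 24 HPI. The libraries of a time point did not overlap the control libraries in CPM for 4, 4, 5, 18 and 11 members in time order. Over all genes the shares were 7.41%, 8.07%, 11.4%, 16.2% and 15%.

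These counts depended on the batch term. Over the time course 41 members passed with the replicate block, 9 without it and 23 with a factor estimated by RUVs in its place. The share of all genes over the time course in the last 2 fits is not given here. Whether these 2 counts exceed it is therefore not shown. Without the replicate block, 0 members were called at 8 HPI, 8 at 16 HPI (Sema6a, Slit2 and Efnb1 higher and Sema5a, Sema4a, Plxna4, Efna5 and Unc5c lower) and 1 at 24 HPI (Efna5). Of all genes, 0.443%, 5.13% and 1.11% were called in that fit, against 7.68%, 22.2% and 15% with the block. With the RUVs factor, 0 members rose and 1 fell at 8 HPI, against 2.37% of all genes changed. At 8 HPI the members thus showed no excess in that fit. It called 7 higher and 19 lower at 16 HPI, and 2 higher and 11 lower at 24 HPI. Of all genes, 14.5% and 7.68% changed at these times. The paper names RUVSeq, with edgeR and EDASeq, for its batch correction. The 8 HPI count also rested on single libraries. It was 8 and 7 without Control replicate 2 or 3, and 9, 10 and 4 without 8 HPI replicate 1, 2 or 3. The shares of all genes in these fits were 4.5%, 3.45%, 3.89%, 5.89% and 3.26% in the same order. The 24 HPI count of 28 was 16 and 17 without Control replicate 1 or 2, and 18 without 24 HPI replicate 1. The shares of all genes were then 11.3%, 9.01% and 10.1%. With each of the 18 libraries left out in turn, 3 of the 16 calls at 8 HPI held in every such fit (Epha8, Plxna2 and Plxnb2), as did 24 of the 30 at 16 HPI and 13 of the 28 at 24 HPI.

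**Figure D2:**
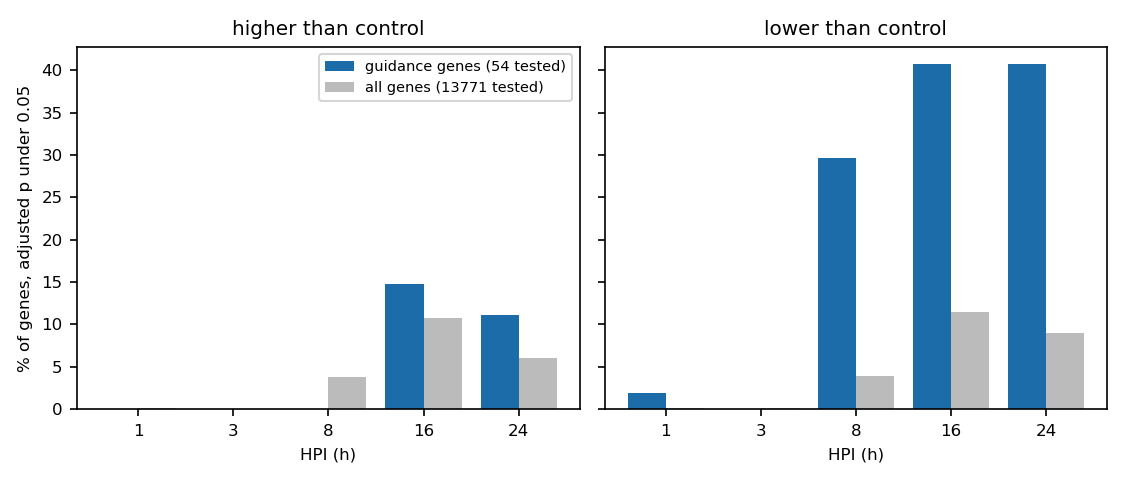
Percent of the 54 tested members (blue) and of all 13771 tested genes (grey) higher (left) or lower (right) than control at an adjusted p under 0.05, by HPI in hours. Lower calls reached 22 of 54 members at 16 and 24 HPI, against 11.5% and 9.03% of all genes.

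**Figure D3:**
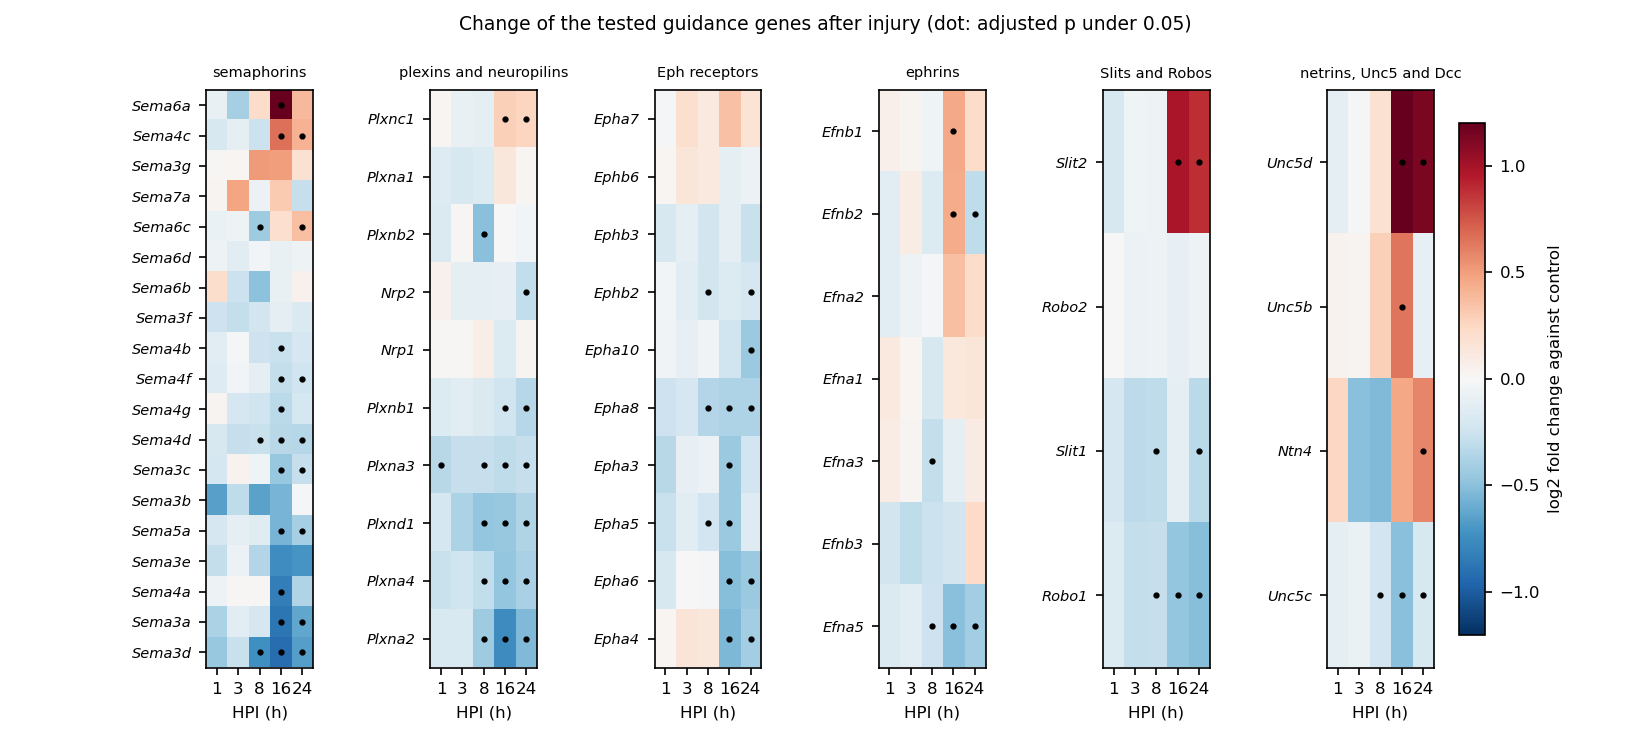
Log2FC against control of the 54 tested members (colour) by HPI in hours, grouped by family and ordered by the 16 HPI value. Dots mark an adjusted p under 0.05, and most dots lie in the 16 and 24 HPI columns on blue cells.

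Among the semaphorins, 15 of 19 tested members changed over the time course, against 30% of all genes. At 16 HPI 2 were higher and 9 lower, against 10.7% and 11.5% of all genes. At 24 HPI 2 were higher and 6 lower, against 5.99% and 9.03%. Of the 6 class 4 semaphorins, transmembrane ligands for class B plexins, 5 fell at 16 HPI and Sema4c rose, against 11.5% of all genes lower and 10.7% higher. The call of Sema4b was lost without Control replicate 1 or 2 or 16 HPI replicate 2, and that of Sema4g without Control replicate 2 or 3 or 16 HPI replicate 2.

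Sema6a, a transmembrane ligand for class A plexins, had 12.7, 19.9 and 28.9 CPM in control. It had 45.6, 44.2 and 56.9 CPM at 16 HPI and 21.3, 31.1 and 27.3 CPM at 24 HPI. All 16 HPI libraries lay above all control libraries, while the 24 HPI libraries overlapped them. This gave a log2FC of 1.26 ± 0.13 at 16 HPI (edgeR, adjusted p = 1.06e-06) and 0.39 ± 0.14 at 24 HPI (adjusted p = 0.0598). It was higher in 3 of 3 batches at 16 HPI.

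Sema4c (ENSMUSG00000026121.13, chromosome 1 of GRCm38 from 36548639 to 36558349) had 5.29, 5.82 and 8.19 CPM in control and 8.64, 9.53 and 12.9 CPM at 16 HPI. The groups did not overlap at 16 HPI. Its log2FC was 0.66 ± 0.12 (edgeR, adjusted p = 0.000429), and 0.42 ± 0.12 at 24 HPI (adjusted p = 0.0244). The 24 HPI call was lost in DESeq2 and without any one control library or 24 HPI replicate 2. The gene shares 7.27% of its exon bases with an opposite-strand transcript, and how the counting used strand was not stated in the sources used here.

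Sema5a (ENSMUSG00000022231.9, chromosome 15 from 32244810 to 32696341), a transmembrane ligand whose promoter is shown above, had 370, 355 and 317 CPM in control. It had 234, 242 and 241 CPM at 16 HPI and 286, 259 and 251 CPM at 24 HPI. Every library of both times lay below every control library. In the fit the log2FC was -0.56 ± 0.05 at 16 HPI (edgeR, adjusted p = 2.15e-07) and -0.40 ± 0.05 at 24 HPI (adjusted p = 2.63e-05).

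Sema3a (ENSMUSG00000028883.17, chromosome 5 from 13125414 to 13602565), the secreted repellent for Nrp1 and class A plexins, was at low level. It had 12.1, 5.60 and 5.84 CPM in control, 5.78, 3.18 and 3.81 CPM at 16 HPI and 6.87, 3.53 and 4.61 CPM at 24 HPI. The groups overlapped, and replicate 1 was the highest library of each group. Within each batch it was lower than control in 3 of 3 batches at both times. It had a log2FC of -0.87 ± 0.13 at 16 HPI (edgeR, adjusted p = 3.77e-05) and -0.63 ± 0.12 at 24 HPI (adjusted p = 0.00113).

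Receptors of semaphorins also fell. Of the 10 tested plexins and neuropilins, 5 fell and 1 rose at 16 HPI, against 11.5% and 10.7% of all genes. At 24 HPI 6 fell and 1 rose, against 9.03% and 5.99%. Plxna2, Plxna3 and Plxna4 were lower at 8, 16 and 24 HPI. Of the 3, Plxna2 kept its call at all of these times in every fit without 1 library. Plxna4 lost the 8 HPI call without Control replicate 2 or 8 HPI replicate 3. Plxna3 lost it without any one control library or 8 HPI replicate 1 or 3, and the 24 HPI call without 24 HPI replicate 1. Plxna1 was not called at any time.

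Plxna2 (ENSMUSG00000026640.12, chromosome 1 from 194618218 to 194816869), a receptor for class 3 and class 6 semaphorins, had 282, 187 and 235 CPM in control. It had 210, 127 and 190 CPM at 8 HPI, 152, 124 and 144 CPM at 16 HPI and 201, 122 and 171 CPM at 24 HPI. Only the 16 HPI libraries lay wholly below control, and each injured library at these times was lower than the control of its own batch. This gave a log2FC of -0.42 ± 0.07, -0.75 ± 0.07 and -0.53 ± 0.07 (edgeR, adjusted p = 0.000888, 2.92e-07 and 3.57e-05).

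Plxna4 (ENSMUSG00000029765.12, chromosome 6 from 32144268 to 32588192) had 394, 418 and 427 CPM in control, 337, 335 and 334 CPM at 8 HPI, 323, 287 and 301 CPM at 16 HPI and 317, 317 and 321 CPM at 24 HPI. The control libraries were above all libraries of these times. Its log2FC was -0.47 ± 0.07 at 16 HPI (edgeR, adjusted p = 3.97e-05).

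Plxnb2, a receptor for class 4 semaphorins, differed from control at 8 HPI alone, where its log2FC was -0.50 ± 0.09 (edgeR, adjusted p = 0.00144). At 16 HPI the value was 0.00 ± 0.08. Plxnc1, the receptor of Sema7a, was the one plexin that rose. Its log2FC was 0.29 ± 0.09 at 16 HPI (adjusted p = 0.0182) and 0.26 ± 0.08 at 24 HPI (adjusted p = 0.0438). The 16 HPI call was lost without Control replicate 1 or 16 HPI replicate 1, and the 24 HPI call without any one control library, 16 HPI replicate 3, or 24 HPI replicate 1 or 2. Nrp1, the member with the highest RPKM in control, had 399, 313 and 265 CPM in control and 324, 278 and 273 CPM at 16 HPI, a log2FC of -0.17 ± 0.07 that did not pass (adjusted p = 0.0842). It passed without Control replicate 3.

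**Figure D4:**
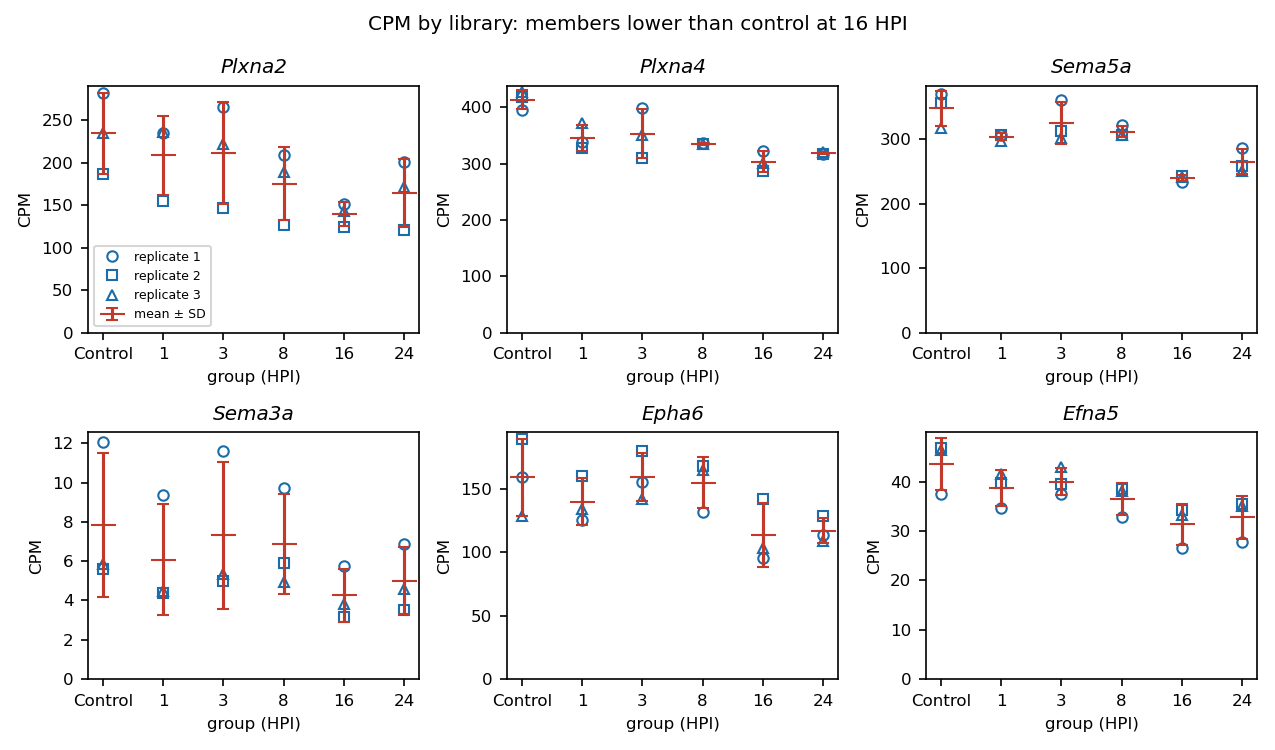
CPM of 6 members lower than control at 16 HPI, by group (control and HPI in hours). Symbols are the 3 replicates, with the mean and SD in red. Plxna2, Plxna4, Sema5a and Efna5 have every 16 HPI library below every control library, while Sema3a and Epha6 overlap control.

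The Eph receptors fell on the EphA side at 16 HPI. Of 7 tested EphA receptors, which bind mainly ephrin-A ligands, 5 fell at 16 HPI and 4 at 24 HPI. Of 3 tested EphB receptors Ephb2 fell at 8 and 24 HPI, and at 16 HPI it had a log2FC of -0.16 (edgeR, adjusted p = 0.0604). Its 8 HPI call was lost without Control replicate 1 or 3 or any one 8 HPI library, and its 24 HPI call without Control replicate 1 or 3 or 24 HPI replicate 1 or 3. With GC and length offsets both calls were lost. Of all genes, 11.5% fell at 16 HPI and 9.03% at 24 HPI. A difference between the subfamilies was not tested.

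Epha6 (ENSMUSG00000055540.15, chromosome 16 from 59653483 to 60605531) had 159, 190 and 129 CPM in control, 95.5, 143 and 103 CPM at 16 HPI and 114, 128 and 109 CPM at 24 HPI. The 24 HPI libraries lay below all control libraries and the 16 HPI libraries overlapped them. In the fit the log2FC was -0.51 ± 0.08 at 16 HPI (edgeR, adjusted p = 9.39e-05) and -0.44 ± 0.08 at 24 HPI (adjusted p = 0.000791). Epha4, which binds ephrins of both classes, had 122, 98.0 and 62.4 CPM in control and 70.1, 62.3 and 60.3 CPM at 16 HPI. The 2 groups overlapped through Control replicate 3, and its log2FC was -0.54 ± 0.10 at 16 HPI (adjusted p = 0.000669) and -0.42 ± 0.10 at 24 HPI (adjusted p = 0.00895). The 24 HPI call was lost without Control replicate 1 or 2 or 24 HPI replicate 2. Epha8 was lower at 8, 16 and 24 HPI, with log2FC values of -0.35, -0.37 and -0.37. Epha5 was lower at 8 and 16 HPI but not at 24 HPI, with log2FC values of -0.23, -0.45 and -0.16. Its 8 HPI call was lost without Control replicate 2 or 3 or 8 HPI replicate 3.

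Ephrins moved in different directions. Efna5 (ENSMUSG00000048915.12, chromosome 17 from 62604184 to 62881317), a ligand of EphA receptors, had 37.5, 46.8 and 46.5 CPM in control, 26.5, 34.3 and 33.3 CPM at 16 HPI and 27.8, 35.5 and 35.1 CPM at 24 HPI. All injured libraries of these times were below all control libraries. It had a log2FC of -0.50 ± 0.06 at 16 HPI (edgeR, adjusted p = 2.98e-06) and -0.42 ± 0.06 at 24 HPI (adjusted p = 3.82e-05).

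The transmembrane ephrin-Bs Efnb1 and Efnb2 were higher at 16 HPI. Efnb2 (ENSMUSG00000001300.16, chromosome 8 from 8617434 to 8661242) had 12.4, 13.52 and 13.0 CPM in control, 16.8, 21.2 and 16.2 CPM at 16 HPI and 8.54, 12.9 and 10.4 CPM at 24 HPI. The 16 HPI libraries were above control, and the 24 HPI libraries overlapped the control libraries. It was higher at 16 HPI and lower at 24 HPI, with log2FC values of 0.45 ± 0.10 (edgeR, adjusted p = 0.00176) and -0.30 ± 0.10 (adjusted p = 0.0451). The call at 24 HPI, unlike that at 16 HPI, was lost in DESeq2 and without any one library of control or 1 HPI, 8 HPI replicate 1 or 2, or 24 HPI replicate 1 or 3. Efnb1, encoded on chromosome X, had 14.7, 17.0 and 17.6 CPM in control and 20.2, 26.1 and 22.7 CPM at 16 HPI. These groups did not overlap, with a log2FC of 0.46 ± 0.08 (adjusted p = 0.000163). Efna3 was lower at 8 HPI, with a log2FC of -0.29 ± 0.07 (adjusted p = 0.0197), which was lost without Control replicate 1 or 3 or any one 8 HPI library. Efna3 shares 14.1% of its exon bases with an opposite-strand transcript.

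In the Slit and Robo family, Slit2 rose while Robo1 fell. Slit2 was at a low level, 0.413 ± 0.057 RPKM in control, against 17.05 RPKM for Slit1, which did not rise. The control means were 10.5 CPM for Slit2 and 101 CPM for Slit1. The RPKM contrast is wider because total exon length was 25433 bases for Slit2 and 5921 for Slit1. Slit2 (ENSMUSG00000031558.15, chromosome 5 from 47983138 to 48307733) had 11.8, 8.94 and 10.8 CPM in control, 23.6, 18.9 and 20.4 CPM at 16 HPI and 20.6, 21.5 and 16.2 CPM at 24 HPI. All injured libraries of both times lay above all control libraries. This gave a log2FC of 0.98 ± 0.12 at 16 HPI (edgeR, adjusted p = 9.23e-06) and 0.89 ± 0.12 at 24 HPI (adjusted p = 5.65e-05).

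Robo1 (ENSMUSG00000022883.10, chromosome 16 from 72308306 to 73046095), a receptor of Slits, had 32.2, 42.0 and 52.3 CPM in control and 24.2, 32.0 and 32.6 CPM at 24 HPI. The groups overlapped slightly, and it was lower in 3 of 3 batches. Its log2FC at 8, 16 and 24 HPI was -0.28 ± 0.08, -0.47 ± 0.08 and -0.51 ± 0.08 (edgeR, adjusted p = 0.0350, 0.000221 and 0.000183). The 8 HPI call was lost without Control replicate 2 or 3 or any one 8 HPI library. Slit1 had a log2FC of -0.31 ± 0.08 at 8 HPI (edgeR, adjusted p = 0.0276) and -0.32 ± 0.08 at 24 HPI (adjusted p = 0.0108). At 16 HPI it had -0.11 ± 0.08 (adjusted p = 0.372). The 8 HPI call was lost without Control replicate 2 or 3 or 8 HPI replicate 2 or 3. The 24 HPI call was lost without Control replicate 2 or 3 or 24 HPI replicate 1 or 3. Robo2, at 4.45 RPKM in control against 2.55 for Robo1, was called at no time point.

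The Unc5 receptors, which mediate repulsion by netrins, split. Unc5d (ENSMUSG00000063626.5, chromosome 8 from 28646717 to 29219636) had 11.99, 8.21 and 3.40 CPM in control, 26.2, 18.1 and 9.26 CPM at 16 HPI and 24.8, 17.1 and 9.03 CPM at 24 HPI. The groups overlapped, with replicate 3 lowest and replicate 1 highest in each, and it was higher in 3 of 3 batches at both times. In the fit the log2FC was 1.19 ± 0.10 at 16 HPI (edgeR, adjusted p = 5.75e-08) and 1.13 ± 0.10 at 24 HPI (adjusted p = 2.64e-07).

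Unc5b (ENSMUSG00000020099.7, chromosome 10 from 60762593 to 60831581) had 8.52, 11.8 and 18.8 CPM in control, 14.7, 19.8 and 26.9 CPM at 16 HPI and 7.56, 12.7 and 16.1 CPM at 24 HPI. The groups overlapped. It had a log2FC of 0.64 ± 0.10 at 16 HPI (edgeR, adjusted p = 7.99e-05) and -0.10 ± 0.10 at 24 HPI (adjusted p = 0.554). Unc5c (ENSMUSG00000059921.15, chromosome 3 from 141465216 to 141834924) had 57.5, 70.4 and 50.8 CPM in control and 39.5, 48.5 and 39.9 CPM at 16 HPI, without overlap. It was lower at 8, 16 and 24 HPI, with log2FC values of -0.23, -0.50 and -0.19. The 16 HPI call held without any one library. The 8 HPI call was lost without Control replicate 1 or 2 or any one 8 HPI library. The 24 HPI call was lost in DESeq2 and in 11 of the 18 fits without 1 library, those without Control replicate 1 or 2, 1 HPI replicate 2, 3 HPI replicate 1, any 8 HPI library, 16 HPI replicate 1 or 3, or 24 HPI replicate 2 or 3. The ligand Ntn4 had 1.86, 1.89 and 2.90 CPM in control and 2.94, 3.63 and 3.48 CPM at 24 HPI, where it was higher without overlap. Its log2FC of 0.58 ± 0.18 (adjusted p = 0.0347) was lost in DESeq2 and without Control replicate 1 or 2 or any one 24 HPI library.

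**Figure D5:**
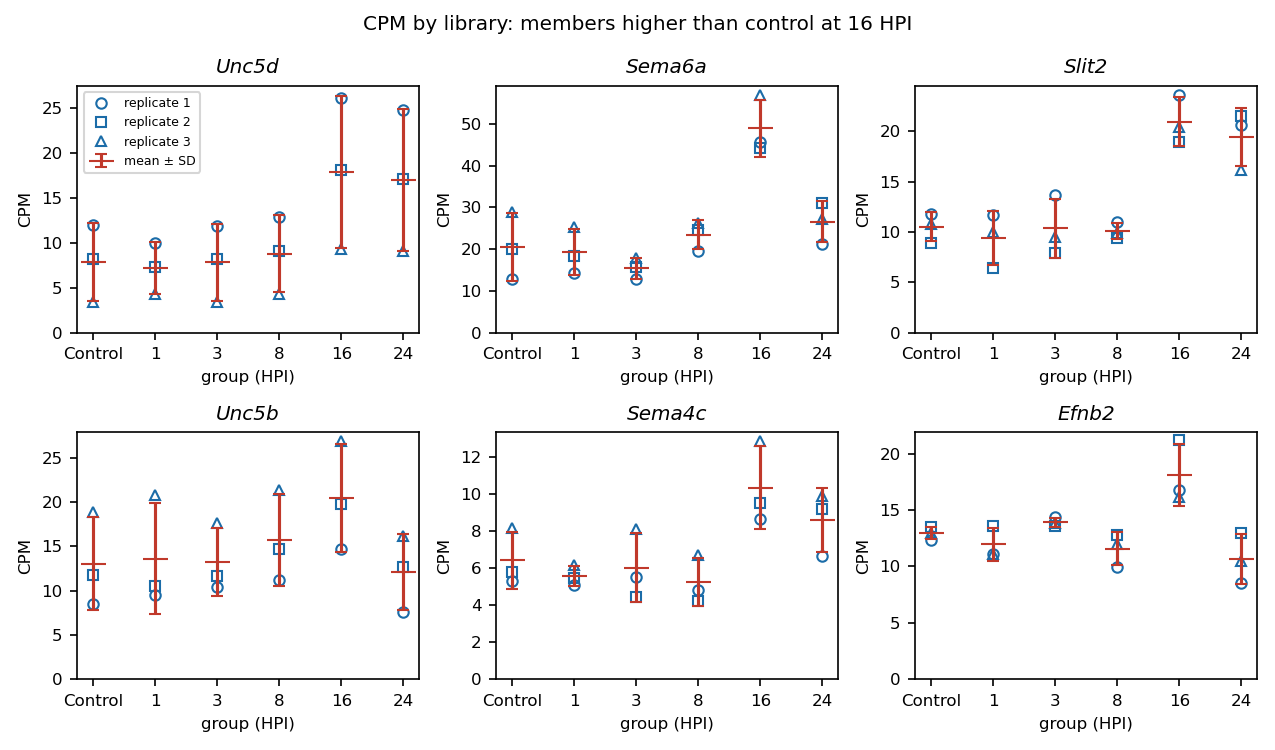
CPM of 6 members higher than control at 16 HPI, by group (control and HPI in hours). Symbols are the 3 replicates, with the mean and SD in red. Sema6a, Unc5b and Efnb2 were lower at 24 than at 16 HPI, while Unc5d and Slit2 stayed above the control of their batch at both times.

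In the direct comparison of 24 with 16 HPI, 7 members differed, 3 higher and 4 lower, against 9.82% of all genes (3.59% higher and 6.22% lower). Sema6a, Unc5b, Efnb2 and Efnb1 were lower at 24 than at 16 HPI, and Unc5c, Epha5 and Sema4a were higher. The largest differences were -0.87 ± 0.13 for Sema6a (edgeR, adjusted p = 0.000148), -0.75 ± 0.10 for Efnb2 (adjusted p = 4.60e-05) and -0.74 ± 0.10 for Unc5b (adjusted p = 5.70e-05). For Unc5d the difference was -0.07 ± 0.09 (adjusted p = 0.713) and for Slit2 it was -0.09 ± 0.11 (adjusted p = 0.694). The differences for Efnb1 (-0.23 ± 0.07, adjusted p = 0.0486) and Sema4a (0.46) did not pass in DESeq2, and they were lost in 14 and 13 of the 18 fits without 1 library. The other 5 held in every such fit. With upper-quartile scaling or in DESeq2, 5 members were higher and 3 lower. Of all genes, 9.85% and 7.72% changed in these fits in either direction. Without the replicate block, Efnb2 was the 1 member called, against 0.806% of all genes.

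Ligands and receptors both fell more often than they rose. Of 29 tested ligands, 10 fell and 5 rose at 16 HPI, and 9 fell and 4 rose at 24 HPI. Of 25 tested receptors, 12 fell and 3 rose at 16 HPI, and 13 fell and 2 rose at 24 HPI. Of all genes, 11.5% fell and 10.7% rose at 16 HPI, and 9.03% fell and 5.99% rose at 24 HPI. A difference between ligands and receptors was not tested. Lower at 8, 16 and 24 HPI were 10 members, Efna5, Epha8, Plxna2, Plxna3, Plxna4, Plxnd1, Robo1, Sema3d, Sema4d and Unc5c. Of these only Epha8 and Plxna2 kept the 8 HPI call in every fit without 1 library. Plxnd1, with 134, 135 and 266 CPM in control, lost all these calls without Control replicate 3. Its 24 HPI call was also lost in DESeq2. Sema3d lost its 8 and 24 HPI calls in DESeq2 and without Control replicate 1 or 3. At 8 HPI Sema3d was higher than control in 1 of 3 batches. Higher at 16 and 24 HPI were 4, Plxnc1, Sema4c, Slit2 and Unc5d.

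Of the 54 tested members, 16 passed at no time point. They were Efna1, Efna2, Efnb3, Epha7, Ephb3, Ephb6, Nrp1, Plxna1, Robo2, Sema3b, Sema3e, Sema3f, Sema3g, Sema6b, Sema6d and Sema7a. Some had sizeable values with wide errors, such as Sema3e with a log2FC of -0.75 ± 0.27 at 16 HPI (edgeR, adjusted p = 0.0550). Robo2, by contrast, had -0.10 ± 0.07 at that time with a level of 4.45 RPKM in control. A p that misses the threshold does not show that these members were unaltered.

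Many guidance genes are long. The genomic span from first to last exon base had a median of 87.8 kb for the tested members, against 23.2 kb for all tested genes matched to vM21. Members lower at 16 HPI had a median of 177 kb, and those higher had 101 kb. Of the 27 members over 100 kb, 14 (51.9%) fell at 16 HPI, against 28.3% of all genes over 100 kb. Of the 27 members up to 100 kb, 8 (29.6%) fell, against 8.57% of all such genes. At 24 HPI the shares were 55.6% against 24.6% and 25.9% against 6.34%. The part of length in the members' change was not tested beyond these shares.

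Genes that act with the guidance receptors were counted from 2 lists. Of 29 tested co-receptors and modifiers, such as contactins and the netrin receptor Neo1, 8 fell at 8 HPI, 16 at 16 HPI and 14 at 24 HPI, and 0, 3 and 0 rose by edgeR. The 3 that rose at 16 HPI were Rgma, Flrt3 and Boc. Of 54 tested cytoplasmic effectors, 4 fell at 8 HPI, 13 at 16 HPI and 14 at 24 HPI, and 3, 4 and 3 rose. Of all genes, 3.90%, 11.5% and 9.03% fell and 3.78%, 10.7% and 5.99% rose at these times. Cntn2, an axonal adhesion molecule, had 200 ± 15.5 CPM in control and log2FC values of -0.20, -0.55 and -0.45 (SE 0.05 each) at 8, 16 and 24 HPI, all of which passed. Flrt2, an Unc5 ligand, had a log2FC of -0.85 ± 0.11 at 8 HPI (edgeR, adjusted p = 4.91e-05), -0.77 ± 0.11 at 16 HPI (adjusted p = 2.65e-05) and -0.24 ± 0.10 at 24 HPI (adjusted p = 0.112). Rapgef2, which activates Rap1, had a log2FC of 0.30 ± 0.05 at 8 HPI (edgeR, adjusted p = 0.00184) and -0.27 ± 0.05 at 24 HPI (adjusted p = 0.0017).

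Other measures moved with the late time points. Of 9 sensory neuron markers, 2 fell at 16 HPI, Tubb3 by a log2FC of -0.40 and Scn9a by -0.57, against 11.5% of all genes. At 24 HPI 3 of the 9 fell and 2 rose, against 9.03% and 5.99% of all genes. The 9 summed to 9387 to 9781 CPM in control, 8130 to 9181 at 16 HPI and 8470 to 8844 at 24 HPI. The sums at both times lay below every control library. The 11 markers of satellite glia and Schwann cells summed to 77.4 to 127 CPM in control, 64.4 to 97.8 at 16 HPI and 78.1 to 103 at 24 HPI, nearly all from S100b, and Mag had at most 3 counts in any library. Of the 5 tested, 1 was called lower at 16 HPI and 1 at 24 HPI, and 0 were called higher. Their median log2FC was 0.33 and 0.85 at these times, so the sum does not show the direction of the other markers. The 8 fibroblast markers summed to 4.22 to 12.3 CPM in control, 5.83 to 14.7 at 16 HPI and 5.18 to 17.5 at 24 HPI. Dcn was the 1 of them called, with a log2FC of 2.07 at 16 HPI. The 6 myeloid markers summed to 3.56 to 5.78 CPM in control, 5.45 to 6.47 at 16 HPI and 6.58 to 7.60 at 24 HPI, where Cd68 was called at both times. The 6 endothelial markers summed to at most 2.21 CPM in any library. The 3 neural crest markers summed to 0.582 to 2.15 CPM in control and 2.03 to 6.12 at 24 HPI, where Nes was called. Residual rRNA summed to 6757 to 9813 CPM in control and 9947 to 21500 CPM at 16 HPI. Without 16 HPI replicate 1, 7 members rose and 22 fell at 16 HPI. The part of these cells and of rRNA in the members' change was not tested.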

How the data were processed

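The authors deposited, per library, raw counts of reads on genes, which according to the paper's methods were made by trimming with cutadapt, aligning to mm10 with STAR and counting with featureCounts on GENCODE vM20. The labels' processing notes name HTSeq, and htseq-count's names stand on the last 5 entries of every table. The counts were not normalized. These 5 entries, which together count the reads not assigned to a gene for any reason, were left out. They held 25.2% to 33.2% of the total of a library. Identifiers were matched to GENCODE vM21, 47224 of 47643.

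The tests ran in edgeR 4.0.16 under R 4.3.3 (TMM, quasi-likelihood test, over 1 CPM in at least 3 libraries, 13771 genes), with DESeq2 1.42.0 as the alternative, and tables were made in Python 3.11.15. One model held time point and replicate number. Replicate numbers marked batches, since deviations from group means correlated at 0.484 to 0.765 in 45 same-number pairs and at -0.577 to -0.0423 in 90 others. p-values were adjusted over all genes by Benjamini-Hochberg. RPKM used total exon length. Alternatives were other scaling factors and filters, DESeq2, no block, a RUVs factor, GC and length offsets, no rRNA, a fit of 2 groups only and the omission of each library in turn. The fit was tested on simulated data.

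The members and lists were chosen with earlier results of these data known. Named members are those past 2-fold, the 4 with the smallest p over the time course and the most abundant of each family, and up to 4 genes of the other lists, 1 of which is not reported here. Others named, such as Plxna3 and Sema4a, were chosen after their values were seen.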

Additional observations from a re-analysis of the deposited data

Results flagged for a closer look

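For 7 members the difference from control at 24 HPI departed from that at 16 HPI by the direct test between the times (edgeR, adjusted p under 0.05), which is 7 of 54 against 9.82% of all genes. The log2 difference of 24 against 16 HPI was -0.87 for Sema6a, -0.75 for Efnb2, -0.74 for Unc5b and -0.23 for Efnb1. It was 0.46 for Sema4a, 0.31 for Unc5c and 0.29 for Epha5. Without the replicate block, Efnb2 was the 1 of these that passed, and with the RUVs factor 3 members passed. Of all genes, 0.806% and 4.02% passed in these fits. The differences for Efnb1 and Sema4a were lost in 14 and 13 of the 18 fits without 1 library, and the other 5 held in all of them.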

How the results depend on the processing

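Of 784 values of the 28 named genes under 28 alternatives, 743 kept direction and side of the threshold, 40 lost significance, 1 gained it and 0 turned direction. Each gene was scored only at its time point of smallest p, and most were picked for a small p. A high share kept was thus favoured in advance. Among all member calls, 13 of 16 at 8 HPI and 15 of 28 at 24 HPI were lost without some library. Without the replicate block, the counts of changed members were 0 at both 1 and 8 HPI, 8 at 16 HPI and 1 at 24 HPI, with 1 between 24 and 16 HPI, 9 over the time course and 1 past 2-fold, and 7 other pathway genes changed. Of all genes, that fit called 0.443% at 8 HPI, 5.13% at 16 HPI, 1.11% at 24 HPI and 0.806% between 24 and 16 HPI. With the RUVs factor as the batch term the counts of members were 0 at 1 HPI, 1 at 8 HPI, 13 at 24 HPI, 3 between 24 and 16 HPI and 23 over the time course, and 27 other pathway genes. The RUVs fit called 2.37% of all genes at 8 HPI, 7.68% at 24 HPI and 4.02% between 24 and 16 HPI. Shares of all genes over the time course or past 2-fold are not given here for these 2 fits or those without 1 library. At 1 HPI the count was also 0 with upper-quartile factors, with over 1 CPM required in all 18 libraries and with GC and length offsets. DESeq2 gave 4 at 1 HPI and 5 at 3 HPI, against 0.98% and 1.11% of all genes. The compared groups alone gave 12 at 1 HPI, 8 at 8 HPI and 11 between 24 and 16 HPI. Of all genes, they gave 3.25%, 4.14% and 9.5%. The median log2 fold change of the members was -0.098 at 16 HPI and -0.15 at 24 HPI with at least 10 counts as the filter, -0.085 at 1 HPI and -0.049 at 3 HPI with the offsets, and -0.11 at 16 HPI without rRNA and mitochondrial genes. With each library left out, the counts in time order ran from 0 to 1, 0 to 4, 4 to 18, 28 to 32 and 16 to 30, and from 5 to 10 between the late times, 32 to 41 over the time course, 2 to 4 past 2-fold and 37 to 51 other pathway genes. The medians ran from -0.16 to -0.12, -0.15 to -0.078, -0.22 to -0.15, -0.19 to -0.15 and -0.22 to -0.17 in time order. The cause of these differences was not tested. Depth limits members under 1 CPM, which were not tested.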
